A study of Mus musculus with 47 samples.

Results

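Of 4897 p53 binding peaks listed for mouse embryonic stem cells (ESCs), 4317 overlapped no TDG peak by 1 bp or more. This is 88.2% of the list (95% Clopper-Pearson interval 87.22 to 89.05%). Such an interval gives counting error only, takes peaks as independent and does not measure the spread between libraries. These 4317 intervals, called p53-only peaks below, were chosen by comparing the list of p53 peaks with the list of 673 TDG peaks, and the remaining 580 p53 peaks overlapped TDG. The peaks come from chromatin immunoprecipitation followed by sequencing (ChIP-seq) of E14Tg2A cells, a mouse ESC line, grown in serum-free N2B27 medium with LIF and the inhibitors PD0325901 and CHIR99021. The labels give 2 libraries with a polyclonal antibody against TDG and 2 with the CM5 antibody against p53. No knock-down or cell-cycle sort is named for these. Further labels give 2 p53 libraries of sorted cells, 1 of G1 and 1 of SG2M. They also give 1 TDG library of Tdg-depleted cells (shTdg), and input libraries. There is 1 list per factor, and no source used here says which libraries went into it, so whether a peak recurs between libraries could not be examined.

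p53 is a transcription factor that binds DNA as a tetramer and, after DNA damage and other stress, activates genes of cell-cycle arrest, repair and apoptosis. In ESCs it also takes part in the balance between self-renewal and differentiation. TDG, thymine DNA glycosylase, removes mismatched thymine and oxidised forms of 5-methylcytosine from DNA and is known to interact with transcription factors and their coactivators. The title of the series names its question, the control of p53 by TDG through the cell cycle. The p53-only peaks are the intervals where p53 was listed and TDG was not.

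Expression of both proteins' genes and of ESC markers was examined in the RNA libraries of ESCs at 48 h after control siRNA (siC), which are not the cells used for ChIP. Levels are in RPKM, reads scaled by gene length and library size. Trp53, the gene of p53, had 187 RPKM in replicate 1 and 154 RPKM in replicate 2, and Tdg had 46.0 and 43.4 RPKM. The ESC regulators Pou5f1 (761 and 941 RPKM), Sox2 (110 and 78.9 RPKM), Nanog (289 and 372 RPKM), Zfp42 (328 and 494 RPKM) and Esrrb (212 and 167 RPKM) were all present in both libraries, so none of the 5 markers was absent.

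Overlap with TDG was in most cases near complete or absent. Every interval of both lists was 400 bp wide, and no interval overlapped another of its own list. Each of the 580 p53 peaks with TDG overlapped a single TDG interval, by 47 to 400 bp with a median of 376 bp, and the overlap reached 300 bp or more in 555 of them. The p53-only peak nearest to TDG stood 1416 bp away from it. No p53-only peak therefore lay within 1 kb of a TDG interval, and the values on either side of the rule were separated by a gap. These distances describe the choice of the peaks and are not tested.

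The shortest overlaps, just inside the shared set, were at chr7:127005018-127005417 (47 bp), chr7:52229753-52230152 (147 bp), chr8:23545111-23545510 (160 bp), chr19:45427198-45427597 (163 bp), chr10:99399942-99400341 (178 bp) and chr2:130519855-130520254 (181 bp), all positions being of the mouse build mm9. Just outside it, the p53-only peaks nearest to TDG were at chr4:141297655-141298054 (1416 bp), chr6:136417544-136417943 (1419 bp), chr2:152620106-152620505 (1514 bp), chr17:32658959-32659358 (1728 bp), chr13:111185122-111185521 (1779 bp) and chr4:25745111-25745510 (1784 bp). In 5 of these 6 cases the neighbouring TDG interval overlapped a different p53 peak, as did 86.2% of all TDG peaks with any p53 peak. The other case was chr6:136417544-136417943, whose neighbour at chr6:136419363-136419762 was a TDG interval that overlapped no p53 peak. Gene annotation and sequence of mm9 were not used here, so that peaks are named by position and not by gene.

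Close neighbourhood of a TDG interval was uncommon among p53-only peaks, and the rule that chose them sets the lower end of this distance. The median distance to the nearest TDG interval was 977.6 kb, with quartiles of 345.6 and 2337 kb and a maximum of 67013 kb. Within 10 kb of TDG lay 60 p53-only peaks (1.39%), within 100 kb lay 402 (9.31%), and within 1 Mb lay 2195 (50.8%). Of the 60, 56 had as their neighbour a TDG interval that was itself shared with another p53 peak, and 4 had one without p53. Among all TDG peaks, 580 of 673 (86.2%) overlapped a p53 peak, and the difference was not tested. The p53 peaks with TDG were a median of 836.7 kb from the next TDG interval other than their own. Of these 580, 19 (3.28%) had one within 10 kb, 12.4% within 100 kb and 55% within 1 Mb. At 100 kb and 1 Mb these shares were near those of p53-only peaks, and no test was made. Seen from the other factor, the 93 TDG peaks without p53 were a median of 106.6 kb from the nearest p53 peak. The lists differ in length, 673 against 4897 intervals, and a shorter list gives longer distances to its members, so the 2 medians of the unshared sets are descriptions that cannot be set against each other.

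**Figure D1:**
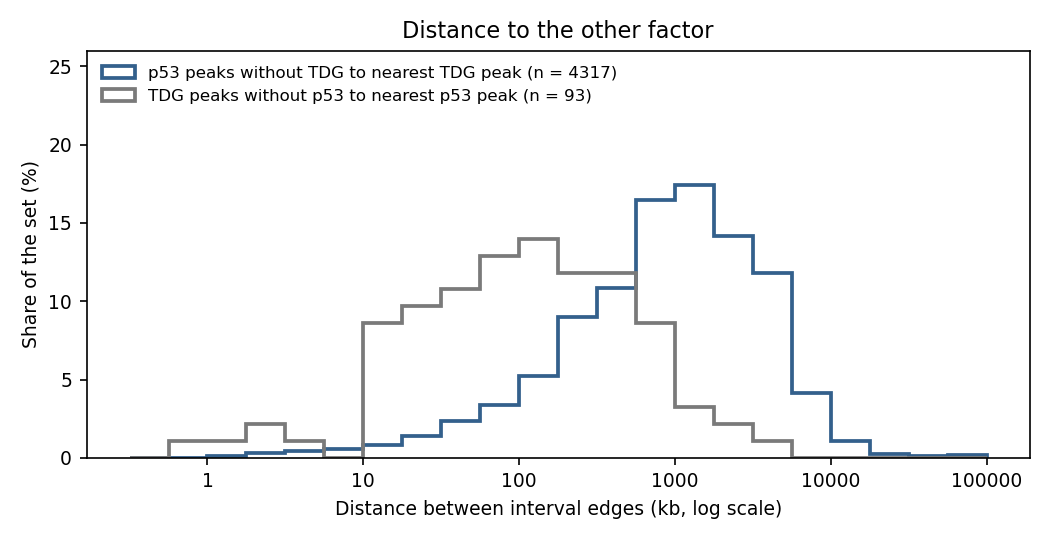
Distance from each p53-only peak to the nearest TDG interval (blue) and from each TDG peak without p53 to the nearest p53 interval (grey), in kb on a log axis, as a share of each set in percent. The p53-only peaks have a median of 977.6 kb and the TDG peaks without p53 one of 106.6 kb, with lists of 673 and 4897 intervals to be near to.

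The p53-only peaks were found on all 19 autosomes and on the X chromosome. Chromosome 2 held the most, 332, followed by chromosomes 8 with 317 and 6 with 311. The X chromosome held the fewest, 51, followed by chromosomes 18 and 19 with 131 each. Chromosomes differ in length, so density was taken as p53-only peaks per Mb up to the last p53 peak of the chromosome. It was 0.308 per Mb on the X chromosome and ranged over the autosomes from 1.18 per Mb on chromosome 3 to 2.54 per Mb on chromosome 11. The X chromosome was below every autosome, and the same was true of p53 peaks in all, of which it held 52.

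The share of p53 peaks without TDG lay close to that of the whole list on most chromosomes. Among autosomes it ranged from 85.3% on chromosome 3 (186 of 218, 95% Clopper-Pearson interval 79.91 to 89.74%) to 93.8% on chromosome 13 (182 of 194, 89.44 to 96.76%). On the X chromosome 51 of 52 p53 peaks were without TDG, 98.1% with an interval of 89.74 to 99.95%. The share comes from the rule that chose the peaks, and peaks are not independent of each other, so chromosomes are described and not tested. The 3 highest shares were those of the X chromosome, chromosome 13 and chromosome 18 (92.3%, 131 of 142). The same 3 chromosomes held the fewest TDG peaks in all, 3, 13 and 13.

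Distances to TDG were longest on these chromosomes, which had the fewest TDG intervals to be near to. Fewer TDG intervals give longer distances, so this is not separate from the TDG counts. The median distance from a p53-only peak to TDG was 15981 kb on the X chromosome, 3820 kb on chromosome 13 and 3313 kb on chromosome 18. It was lowest on chromosome 6, at 719.2 kb, where there were 53 TDG peaks. The p53-only peak farthest from TDG, chrX:165848522-165848921, stood 67013 kb from the interval chrX:98835076-98835475. The next 2 farthest, chrX:163820189-163820588 and chrX:161351515-161351914, were measured from that same TDG interval.

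**Figure D2:**
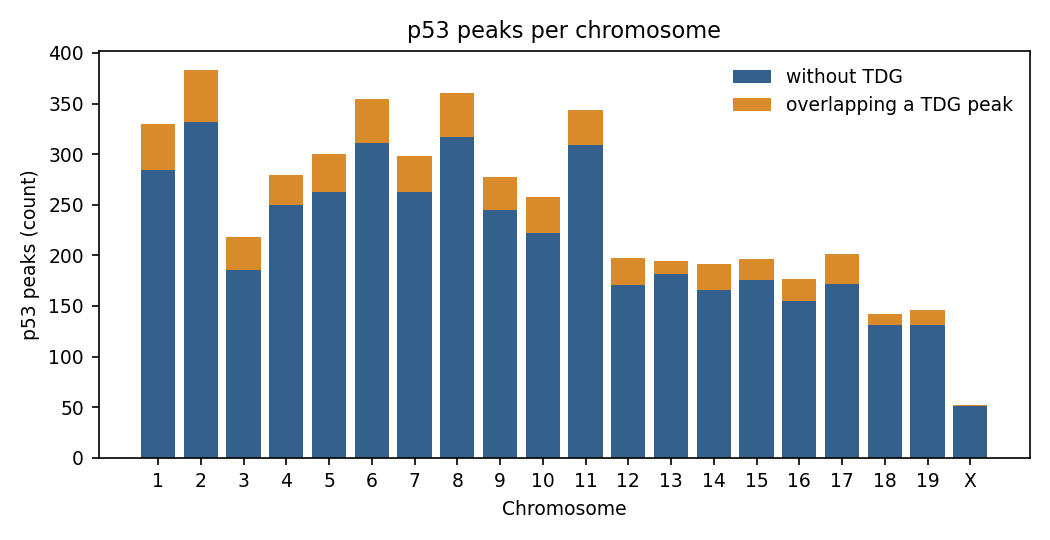
Number of p53 peaks on each chromosome, split into p53 peaks without TDG (blue) and p53 peaks that overlap a TDG peak (orange). Blue makes up 85.3 to 93.8% of the bar on the autosomes and 51 of 52 peaks on the X chromosome, which has the shortest bar.

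Most p53-only peaks had no other p53 peak close by. The median distance to the nearest other p53 peak was 108.2 kb, with quartiles of 40.05 and 254.0 kb, and 345 of 4317 (7.99%, 95% Clopper-Pearson interval 7.2 to 8.841%) had another p53 peak within 10 kb. Among p53 peaks with TDG the median was 103.8 kb, and 73 of 580 (12.6%, interval 9.997 to 15.56%) had one within 10 kb. At 100 kb the shares were 47.3 and 48.8%, with overlapping intervals. Neighbouring peaks count each other, so the intervals are too narrow by an unknown amount, and no test of the difference was made.

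**Figure D3:**
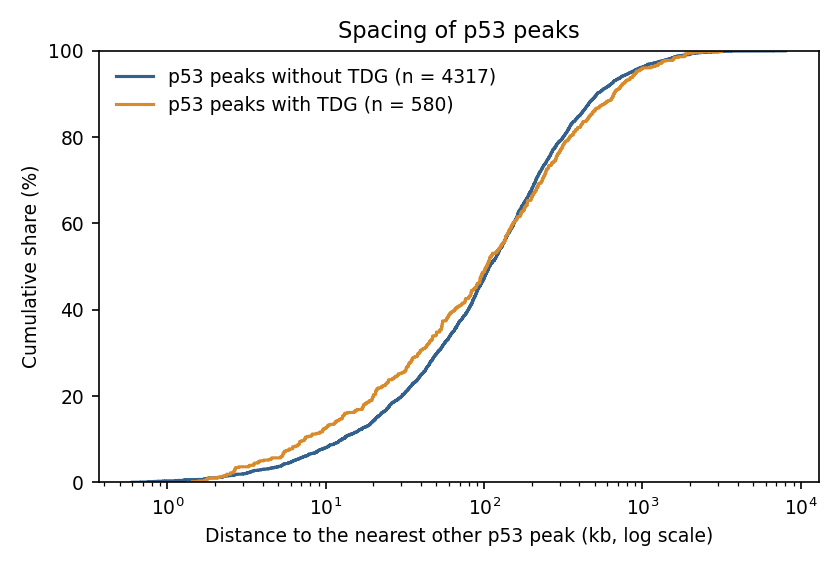
Cumulative share, in percent, of p53 peaks whose nearest other p53 peak lies within the distance on the x axis (kb, log scale), for p53 peaks without TDG (blue) and with TDG (orange). The orange curve is above the blue one at 10 kb (12.6 against 7.99%) and the curves are close at 100 kb (48.8 against 47.3%). At the upper quartile the order is reversed, with 284.1 kb for p53 peaks with TDG and 254 kb for those without.

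The neighbours of p53-only peaks were themselves mostly without TDG. The nearest other p53 peak had no TDG for 3817 of the 4317 (88.4%), which lies beside the 88.2% of all p53 peaks. For p53 peaks with TDG the figure was 503 of 580 (86.7%). Among peaks with a neighbour within 10 kb, that neighbour had TDG for 56 of 345 p53-only peaks (16.2%). For p53 peaks with TDG it was 17 of 73 (23.3%). Of all p53 peaks 11.8% had TDG, but that is not the share among closely spaced peaks. Such a neighbour is itself a peak with another within 10 kb, and those peaks numbered 345 without TDG and 73 with TDG. No test was made.

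Close groups of p53-only peaks were small. Joining those with gaps of up to 10 kb gave 143 groups with 291 peaks (6.74%). Of the groups, 138 were pairs, 5 were triplets and none was larger. The p53 peaks with TDG were left out of the joining, although 56 p53-only peaks lay within 10 kb of one. Groups over all p53 peaks were not counted, so their size is not a trait particular to p53-only peaks. The most compact triplet lay at chr2:172691315-172702571, where peaks starting at 172691315, 172698641 and 172702172 were separated by 6926 and 3131 bp, and the nearest TDG interval was 4196 kb away. A triplet at chr5:137470444-137481737 had gaps of 3894 and 6200 bp and was 2717 kb from TDG. The third, at chr6:39445231-39458891, had gaps of 6727 and 5734 bp and was 210 kb from TDG. No p53 peak with TDG lay inside any of these 3, and the same held for all 143 groups. The closest pairs were at chr8:124299028-124299427 and chr8:124300020-124300419 (592 bp apart), at chr12:54886930-54887329 and chr12:54888007-54888406 (677 bp), and at chr10:36968204-36968603 and chr10:36969356-36969755 (752 bp).

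At the other end stood isolated peaks. The p53-only peak at chrX:118357811-118358210 was 8077 kb from any other p53 peak, the one at chrX:82996631-82997030 was 6703 kb away, and the one at chr13:120045201-120045600 was 4807 kb away, being the last p53-only peak of chromosome 13.

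Some long series of consecutive p53 peaks held none that overlapped TDG. Of all p53 peaks 88.2% had no TDG, so series of this kind are common. Whether they were longer than that share gives was not tested. By number of peaks, the longest such stretch held 81 p53-only peaks on chromosome 13, from position 52092737 to 98613133, a span of 46.5 Mb with 1 TDG peak that overlapped no p53 peak. Stretches of 67 followed on chromosome 5, over 15.4 Mb from 124794998 to 140196802, and on chromosome 8, over 14.2 Mb from 111419444 to 125668769, each with 2 TDG peaks inside. A stretch of 47 on chromosome 11, from 98010537 to 109222435, held 0 TDG peaks over 11.2 Mb. The next, with 42 peaks on the X chromosome, reached from 38754979 to 165848921 and, at 127 Mb, spanned more sequence than the other 4, with 2 TDG peaks inside. These were chosen as the stretches with most peaks outside chromosome 18, among 519 stretches in all, whose median length was 6 peaks, and 39 stretches held 20 peaks or more.

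The share without TDG was also compared between regions with few and with many p53 peaks. In windows of 1 Mb with a single p53 peak it was 85.6% (489 of 571), and in windows with 6 p53 peaks or more it was 87.9% (1029 of 1170). Windows with 2, 3, 4 and 5 p53 peaks had 90.3, 88.3, 88.7 and 87.4%. The share of p53 peaks without TDG lay between 85.6 and 90.3% in each group of windows, and no test was made. The windows with most p53-only peaks, 10 each, were 135000001 to 136000000 of chromosome 1 (2 TDG peaks), 139000001 to 140000000 of chromosome 5 (0 TDG peaks) and 86000001 to 87000000 of chromosome 12 (1 TDG peak).

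**Figure D4:**
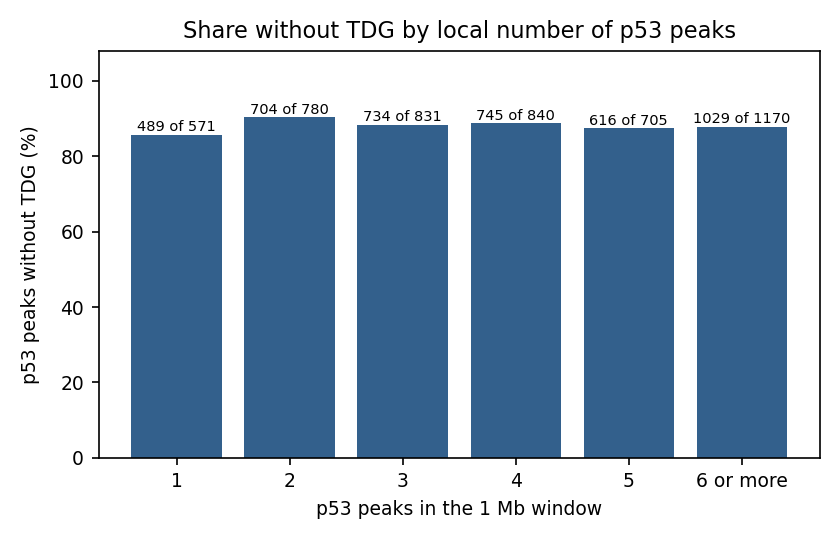
Share of p53 peaks without TDG, in percent, in windows of 1 Mb grouped by the number of p53 peaks they hold, with the counts above the bars. The share lies between 85.6 and 90.3% in all 6 groups.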

How the data were processed

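The members and the choices below were made with earlier results of these data known. The submitters' processing notes name Bowtie, DiffBind and genome build mm9. No source used here states the peak caller, its thresholds or a score, so depth and peak height behind an interval are unknown. The deposited peak lists hold a chromosome, start and end per interval and no other value, and starts are printed counted from 1. RPKM values were deposited by the authors, per the file headers, and are shown for context without a test.

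Overlap of at least 1 bp was computed in Python 3.11.15 and gave the same count in bedtools 2.31.1. Distances are between interval edges. The functions were tested on simulated intervals with known overlaps. Exact binomial intervals came from SciPy 1.17.1. Regions named are the 6 nearest to TDG, the 6 shortest overlaps, the 3 most compact of the longest groups, the 3 closest pairs and the 3 most isolated peaks. Those of chromosome 18 are counted but not named. The windows and stretches were added after the values were seen.

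The gene tables given were of GRCm38. Beyond the last gene of that table on their chromosome lay 41 p53 peaks. Of these 34 were p53-only peaks, beside 88.2% of the whole p53 list. Tests of expression beside the peaks and of sequence features were planned only for tables of mm9 and were not run. Expression columns of 0 h, 4 in number, could be tied to none of the samples and were left out. The other expression tables, and ChIP libraries of sorted or Tdg-depleted cells, were not analysed here.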

Additional observations from a re-analysis of the deposited data

How the results depend on the processing

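The number of p53-only peaks was 4317 when 40 bp of overlap was asked for and when intervals within 1 kb of TDG were counted as shared. It was also 4317 when overlapping intervals were merged first. It was 4324 with 200 bp of overlap and 4257 when intervals within 10 kb of TDG were counted as shared. The settings that gave 4317 could not have changed the count. The shortest overlap was 47 bp, the nearest p53-only peak was 1416 bp from TDG, and no p53 interval overlapped another. The median distance to TDG was 978 kb between centres, against 977.6 kb between edges. The number in close groups depended on the gap that joins them, as its construction implies, with 134 at 5 kb, 291 at 10 kb and 1160 at 50 kb. A stricter peak threshold was not run, since the lists hold no score. Leaving out replicates was not possible for lists without replicates. No paired analysis was possible because each factor has 1 list and no column per replicate. The alternatives planned for expression and sequence were not run. A TDG signal below the authors' threshold cannot be seen in a peak list, so a p53-only peak is one without a listed TDG peak.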

Other observations

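Within each chromosome the p53 list was in order of position, apart from 15 intervals that stood first on 9 chromosomes. Of these 15, 13 were p53-only peaks, beside 88.2% of the whole p53 list. The TDG list held 2 such intervals. The position in the list was not used for any value.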
